A study of Mus musculus with 6 samples.

Results

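The 40 genes described here are markers of endothelial cells, the cells that line blood and lymph vessels. The list names genes known as markers of these cells, and all 40 were found by symbol among the 45777 genes of the deposited count table. They comprise 28 pan-endothelial genes (6 of junctions and adhesion, 9 surface receptors, 7 surface or secreted proteins and vasoactive enzymes, and 6 transcription factors), 5 arterial, 4 capillary or venous and 3 lymphatic genes. Messenger RNA was sequenced from brown adipose tissue, a fat depot that makes heat, of male wild-type C57Bl6/J mice. Animals received phosphate-buffered saline (PBS) or ginsenoside Rb2, a saponin of ginseng, by intraperitoneal injection for 2 weeks, with 3 mice per group and 1 library per mouse. No allele or transgene distinguished the groups, and neither dose nor age is given in the sources used here. The libraries carry the numbers of the table's columns, PBS 1, 2 and 4 and Rb2 1, 3 and 4, and held between 83642183 and 92666780 counts. Levels are in CPM, a unit that removes differences in library size, with TMM scaling. Ucp1, the uncoupling protein that defines brown adipocytes, was between 2928 and 4770.2 CPM in the 6 libraries.

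Endothelial cells adhere to one another through VE-cadherin and claudin junctions, and their growth and barrier are governed by receptors for vascular endothelial growth factor (VEGF), angiopoietins, bone morphogenetic proteins and sphingosine phosphate. Transcription factors of the ETS, SOX, GATA and KLF families maintain their identity, and Notch signalling marks arteries. In brown fat a dense capillary bed supplies oxygen and fatty acids to the adipocytes and carries away the heat they make.

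The promoters of 4 markers are shown because they contrast the gene with the largest fall (Cldn5), a pair of receptors that fell (Eng and Robo4) and a receptor that was higher in every Rb2 library (Calcrl). The sequences are RefSeq promoters of GRCm38.p6, from 250 bases before to 50 after the start, at chr16:18776597-18776896 on the plus strand (Cldn5), chr2:32646345-32646644 on the plus strand (Eng), chr9:37401722-37402021 on the plus strand (Robo4) and chr2:84425217-84425516 on the minus strand (Calcrl). Capitals mark AGGAAG, a short core bound by ETS factors, or its reverse complement.
Cldn5: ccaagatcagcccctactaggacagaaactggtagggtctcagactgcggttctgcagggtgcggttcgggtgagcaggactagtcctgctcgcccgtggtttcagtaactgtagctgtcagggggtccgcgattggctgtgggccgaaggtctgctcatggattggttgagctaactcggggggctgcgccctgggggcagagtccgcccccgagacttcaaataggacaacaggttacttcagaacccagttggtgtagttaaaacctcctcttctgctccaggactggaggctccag
Eng: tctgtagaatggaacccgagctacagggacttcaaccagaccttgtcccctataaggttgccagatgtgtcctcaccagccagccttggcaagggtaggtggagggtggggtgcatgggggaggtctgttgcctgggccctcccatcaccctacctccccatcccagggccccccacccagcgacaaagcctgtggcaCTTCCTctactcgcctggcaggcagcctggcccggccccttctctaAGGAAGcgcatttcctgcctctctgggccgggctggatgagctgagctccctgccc
Robo4: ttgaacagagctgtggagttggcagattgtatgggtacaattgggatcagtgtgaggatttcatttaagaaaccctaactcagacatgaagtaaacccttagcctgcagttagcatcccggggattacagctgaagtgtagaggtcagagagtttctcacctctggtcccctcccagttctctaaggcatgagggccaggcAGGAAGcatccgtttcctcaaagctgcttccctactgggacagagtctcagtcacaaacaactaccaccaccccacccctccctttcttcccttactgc
Calcrl: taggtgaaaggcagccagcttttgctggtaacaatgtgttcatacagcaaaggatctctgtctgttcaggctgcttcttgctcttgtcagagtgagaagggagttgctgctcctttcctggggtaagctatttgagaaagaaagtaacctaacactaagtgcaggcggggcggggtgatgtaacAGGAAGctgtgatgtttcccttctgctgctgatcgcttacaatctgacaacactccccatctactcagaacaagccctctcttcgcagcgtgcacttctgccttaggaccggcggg

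AGGAAG occurred 0 times in the Cldn5 window, 2 times in that of Eng and once in those of Robo4 and Calcrl, so receptors on both sides of the comparison held it. A RefSeq promoter was matched by symbol for 21 of the 40 markers. Several genes have more than 1 promoter, with 31 for these 21 markers and 32851 in all, so the shares are given per promoter. Searched on both strands, AGGAAG was found in 10 of the 31 (32.3%), against 35.4% of all promoters of the same length. The other ETS string, CCGGAAG, was in 0 of 31 against 8.86%. The GATA string GATAAG was in 2 (6.45% against 7.44%), the SOX string AACAAT in 4 (12.9% against 10.7%) and the KLF string CCACCC in 11 (35.5% against 31.5%). An E-box, CACGTG, was in 1 (3.23% against 7.15%) and a TATA box, TATAAA, in 3 (9.68% against 13.6%). Both ETS strings share GGAAG, and none of the strings contains another. These are matches of letters in a window of 300 bases and were not tested as sites.

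Endothelial markers were lower in brown fat after Rb2. Of the 40, 18 fell and 0 rose at an adjusted p under 0.05 (edgeR quasi-likelihood test, Benjamini-Hochberg over 16707 genes), and 22 did not pass. Over all genes tested 5.11% were called lower and 5.33% higher (10.4% in either direction), which is 853 and 890 genes; with library size alone as scaling the calls were 779 and 492. By DESeq2's Wald test 24 markers were lower and 2, Aplnr and Calcrl, were higher, against 9.71% and 10.1% of all genes, and 28 of the 40 had an unadjusted p under 0.05 in edgeR, against 30.0% of all genes. In bulk tissue, fewer endothelial cells and less of these transcripts per cell cannot be told apart.

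The log2 fold change was below 0 for 36 of the 40 markers, against 51.0% of all genes, with a median of -0.69 against -0.01. In 24 markers every Rb2 library was below every PBS library, which held for 17.6% of all genes, and in 2 every Rb2 library was above (18.2% of all genes). The log2 fold change was -1 or lower in 7 markers, of which all but Klf2 were called, against 6.71% of all genes. The summed level of the 40 was 3193, 3544 and 3349.9 CPM with PBS (libraries 1, 2 and 4) against 1792, 1973 and 2548 CPM with Rb2 (libraries 1, 3 and 4), a mean that was 37.4% lower. The Rb2 mice differed among themselves: the median log2 deviation of a marker from its PBS mean was -0.92 in Rb2 1, -0.71 in Rb2 3 and -0.41 in Rb2 4. Rb2 4 was the highest Rb2 library for 36 markers (36.0% of all genes) and Rb2 1 the lowest for 29 (36.9%).

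**Figure D1:**
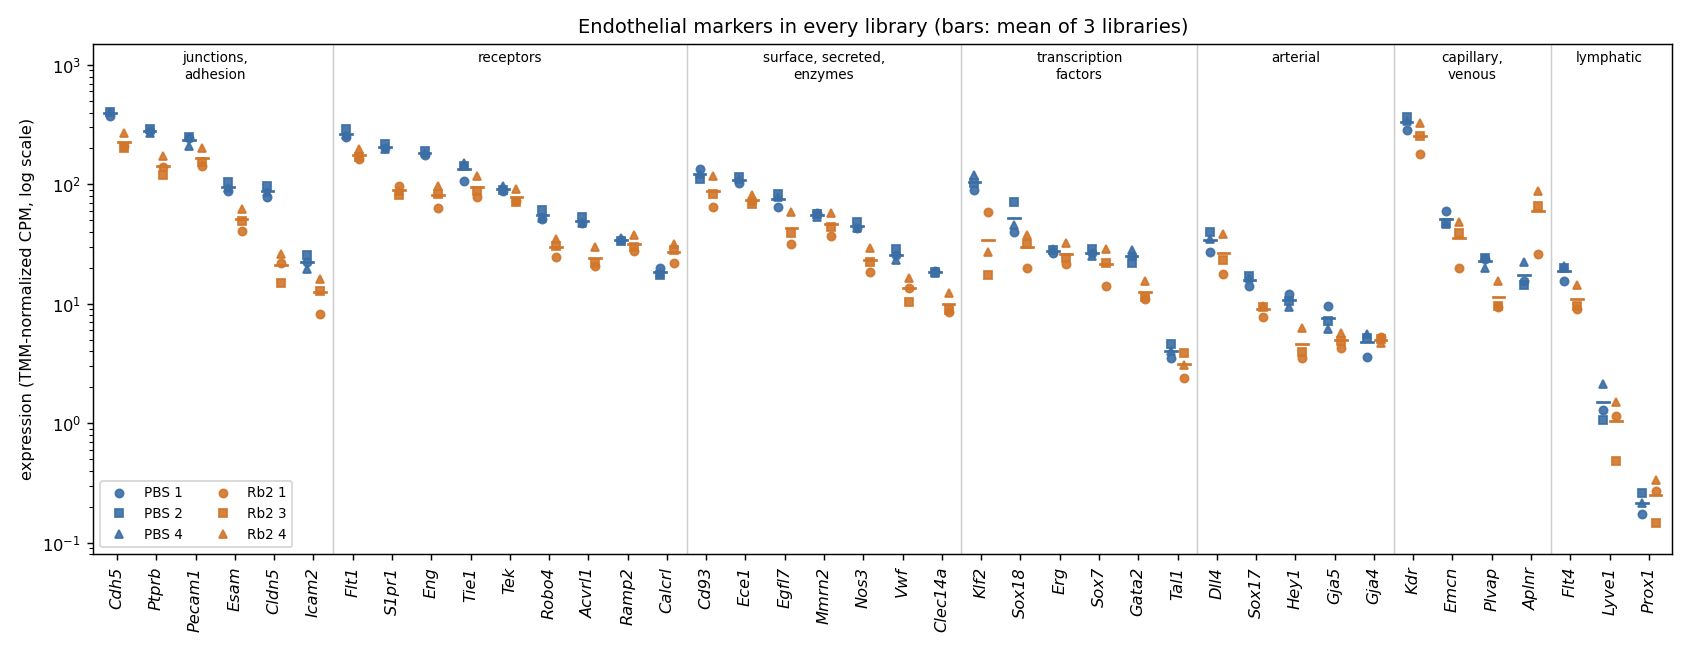
Level of each of the 40 markers in every library (TMM-normalized CPM, log scale), by class, with blue symbols for PBS, orange for Rb2 and bars for the mean of 3 libraries. In 24 markers all orange symbols lie below all blue ones and in Aplnr and Calcrl all lie above. Prox1 lies far below the rest, with Lyve1 next lowest.

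**Figure D2:**
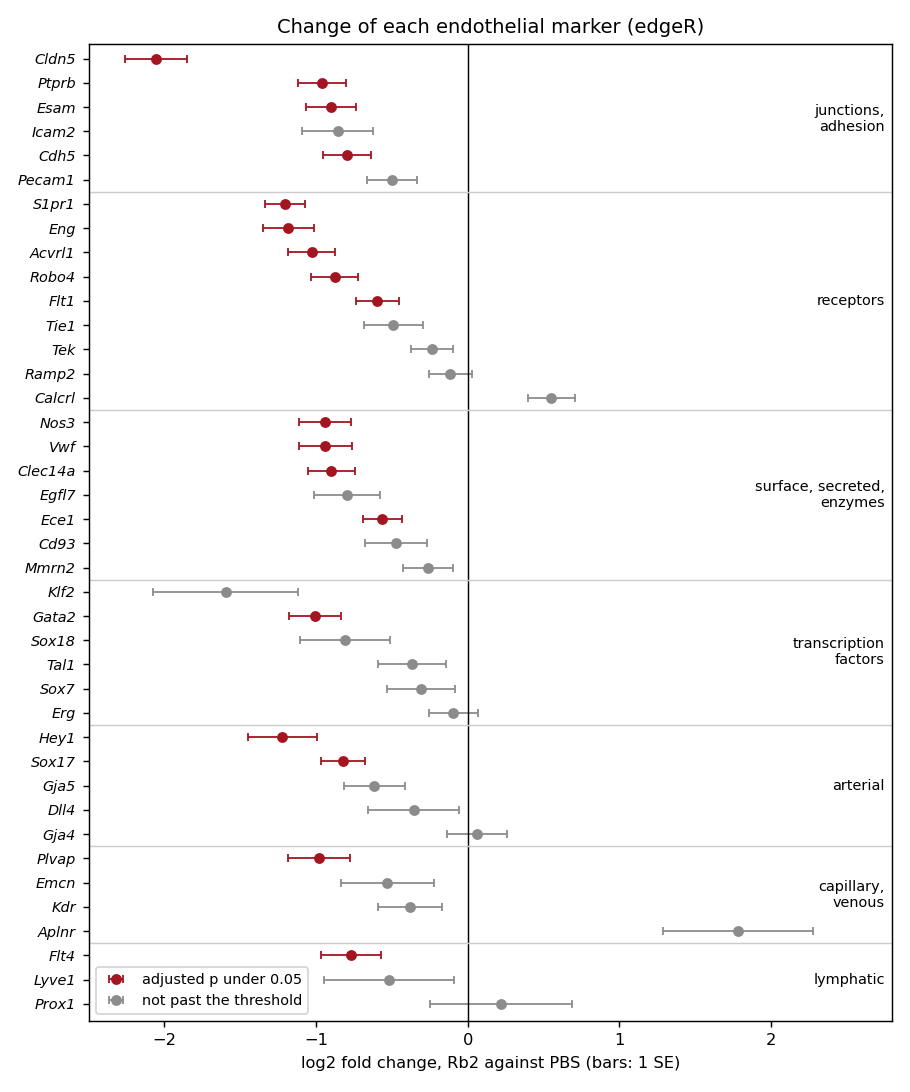
Log2 fold change of each marker, Rb2 against PBS, from edgeR, with bars of 1 SE and red for an adjusted p under 0.05. The 18 red markers lie left of 0, from Cldn5 at -2.05 to Ece1 at -0.56, and Aplnr (1.78) and Calcrl (0.55) lie to the right without passing.

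Genes of endothelial junctions were lower as a class, with 4 of 6 past the threshold and all 6 without overlap between the groups (class median -0.88). Over all genes 5.11% were called lower and 17.6% were lower without overlap, shares that stand beside the counts of every class below. Cldn5, the tight junction protein of endothelium (gene 12741; chromosome 16, 18776847 to 18778262, GRCm38.p6), had the largest fall of all 40 markers. With PBS it was at 78.8, 97.5 and 86.6 CPM (PBS 1, 2 and 4) and with Rb2 at 22.1, 15.0 and 26.1 CPM (Rb2 1, 3 and 4). This is a 4.15-fold lower mean (log2 fold change -2.05 ± 0.20 SE, adjusted p = 0.00258). The lowest PBS library was thus far above the highest Rb2 library.

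The other called junction genes fell by less. Cdh5, VE-cadherin, the defining adhesion molecule of endothelial cells (gene 12562; chromosome 8, 104101613 to 104144504), was at 373, 402 and 406 CPM with PBS and at 208, 202 and 271 CPM with Rb2 (-0.80 ± 0.16 SE, adjusted p = 0.0175). Ptprb, the phosphatase that acts on VE-cadherin and on the angiopoietin receptor, was at 278, 293 and 270 CPM with PBS and at 140, 120 and 172 CPM with Rb2 (-0.96 ± 0.16 SE, adjusted p = 0.0103). Esam, an adhesion molecule of endothelial junctions, was at 88.3, 104 and 93.1 CPM with PBS and at 40.9, 49.2 and 62.5 CPM with Rb2 (-0.90 ± 0.17 SE, adjusted p = 0.0145). In each of these 3 genes Rb2 4 was the Rb2 library nearest to the PBS range, which it did not reach.

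The remaining adhesion molecules missed the threshold although their groups did not overlap. Icam2, a ligand of leukocyte integrins, was at 22.6, 25.6 and 19.7 CPM with PBS and at 8.28, 12.8 and 16.3 CPM with Rb2 (-0.86 ± 0.23 SE, adjusted p = 0.0502). Pecam1, CD31, ranged from 208 to 248 CPM with PBS and from 144 to 200.3 CPM with Rb2 (-0.50 ± 0.16 SE, adjusted p = 0.0804). Cldn5 was called whichever single library was left out. Without PBS 1 the call of Ptprb was lost (adjusted p = 0.0506), and those of Esam and Cdh5 were lost as well. Without PBS 2 or Rb2 3 the calls of Esam and Cdh5 were lost, and without Rb2 1 that of Cdh5 (adjusted p up to 0.0623 for Esam and 0.0706 for Cdh5).

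Among the 9 surface receptors 5 fell, 0 rose and 4 did not pass (class median -0.60). S1pr1, the main endothelial receptor of sphingosine phosphate (gene 13609; chromosome 3, 115710433 to 115715055), was at 203, 219.9 and 197 CPM with PBS and at 97.8, 82.2 and 88.6 CPM with Rb2. Its mean was 2.31-fold lower (log2 fold change -1.21 ± 0.13 SE, adjusted p = 0.00291), and unlike most markers Rb2 1 was its highest Rb2 library. The receptors for bone morphogenetic proteins of the circulation, Eng and Acvrl1, fell by similar amounts. Eng, endoglin, the co-receptor (gene 13805; chromosome 2, 32646595 to 32682669), was at 178, 192 and 184 CPM with PBS and at 63.4, 82.8 and 97.5 CPM with Rb2 (-1.18 ± 0.17 SE, adjusted p = 0.00641); its locus overlaps Fpgs by 61 bases. Acvrl1, the signalling receptor that works with it (gene 11482; chromosome 15, 101128522 to 101145336), was at 47.8, 53.3 and 47.2 CPM with PBS and at 20.7, 22.0 and 29.9 CPM with Rb2 (-1.03 ± 0.16 SE, adjusted p = 0.00835). S1pr1, Eng and Acvrl1 were called whichever single library was left out.

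Robo4, an endothelial receptor of the roundabout family that stabilizes vessels, was at 51.1, 61.5 and 52.6 CPM with PBS and at 24.5, 30.4 and 35.0 CPM with Rb2 (-0.88 ± 0.15 SE, adjusted p = 0.0122). Without PBS 2 it missed the threshold (adjusted p = 0.0574). Flt1, a VEGF receptor that also serves as a decoy, had the smallest fall among the called receptors. It was at 252, 291 and 257 CPM with PBS and at 163, 170.2 and 196 CPM with Rb2 (-0.60 ± 0.14 SE, adjusted p = 0.0310). Its call was lost without PBS 1, PBS 2, Rb2 1 or Rb2 3 (adjusted p up to 0.133).

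The other receptors overlapped between the groups or were higher. Tie1, a co-receptor of the angiopoietin system, ranged from 107 to 152 CPM with PBS and from 78.7 to 119 CPM with Rb2 (-0.49 ± 0.19 SE, adjusted p = 0.124). Tek, the angiopoietin receptor itself, ranged from 88.3 to 97.4 and from 71.2 to 91.1 CPM (-0.23 ± 0.14 SE, adjusted p = 0.286). Calcrl and Ramp2 together form a receptor of adrenomedullin, and they did not move alike. Ramp2 was between 33.3 and 35.3 CPM with PBS and between 27.5 and 37.7 CPM with Rb2 (-0.11 ± 0.14 SE, adjusted p = 0.611). Calcrl was at 20.0, 17.6 and 18.3 CPM with PBS and at 21.8, 28.2 and 31.8 CPM with Rb2, higher in every Rb2 library and just short of the threshold (0.55 ± 0.15 SE, adjusted p = 0.0505). With a per-library correction for GC content and transcript length it was at 0.29 (adjusted p = 0.272).

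Of the 7 surface proteins, secreted proteins and vasoactive enzymes, 4 fell and 3 did not pass (class median -0.80). Nos3, endothelial nitric oxide synthase, was at 42.8, 48.8 and 43.0 CPM with PBS and at 18.3, 22.6 and 29.2 CPM with Rb2 (-0.94 ± 0.17 SE, adjusted p = 0.0133). Its locus overlaps Atg9b by 294 bases. Vwf, von Willebrand factor, which is stored in endothelial granules and binds platelets, was at 25.5, 28.6 and 23.2 CPM with PBS and at 13.5, 10.4 and 16.4 CPM with Rb2 (-0.94 ± 0.18 SE, adjusted p = 0.0149). Clec14a, a lectin-like surface protein, was at 19.0, 18.3 and 18.0 CPM with PBS and at 8.50, 8.96 and 12.2 CPM with Rb2 (-0.90 ± 0.16 SE, adjusted p = 0.0122). Those 3 genes were at nearly the same ratio between the groups although one is an enzyme, one a secreted protein and one a membrane protein. Ece1, the endothelin-converting enzyme, had the smallest fall of the 18 called markers, from 103, 115 and 111 CPM to 72.9, 68.2 and 81.7 CPM (-0.56 ± 0.13 SE, adjusted p = 0.0278).

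Egfl7, a secreted protein whose gene hosts a microRNA, did not overlap between the groups and missed the threshold, at 64.3 to 83.3 CPM with PBS and 31.9 to 58.9 CPM with Rb2 (-0.80 ± 0.22 SE, adjusted p = 0.0530). Cd93, a relative of Clec14a, overlapped, at 111 to 135 CPM with PBS and 65.0 to 117 CPM with Rb2 (-0.47 ± 0.20 SE, adjusted p = 0.156). Mmrn2, a matrix protein bound by both Cd93 and Clec14a, overlapped as well, at 53.1 to 57.5 and 37.1 to 58.2 CPM (-0.26 ± 0.16 SE, adjusted p = 0.309). Without PBS 1 the calls of all 4 fallen genes of the class were lost, without PBS 2 those of Nos3, Vwf and Ece1, and without PBS 4 that of Ece1. Leaving out Rb2 1 ended the calls of Vwf and Ece1, and leaving out Rb2 3 those of Nos3, Clec14a and Ece1. The adjusted p then reached up to 0.0581 for Nos3, 0.0656 for Vwf, 0.0574 for Clec14a and 0.119 for Ece1.

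Of the 6 transcription factors only Gata2 passed the threshold. Gata2, a zinc finger factor of endothelial and blood precursor cells, was at 25.4, 22.0 and 28.4 CPM with PBS and at 10.9, 11.3 and 15.5 CPM with Rb2 (-1.005 ± 0.17 SE, adjusted p = 0.0111), and missed it without PBS 1 (adjusted p = 0.0540). Klf2, a factor induced by laminar blood flow, had a 3.02-fold lower mean, the second-largest decrease among the 40, but its Rb2 libraries were far apart. It was at 89.5, 103 and 119.8 CPM with PBS and at 58.6, 17.4 and 27.3 CPM with Rb2 (-1.60 ± 0.48 SE, adjusted p = 0.0962). It was past the threshold without Rb2 1 at -2.22 on the log2 scale, in limma-voom (adjusted p = 0.0412) and in DESeq2 (adjusted p = 0.0179).

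The SOX factors of the endothelium, Sox7, Sox17 and Sox18, were each lower on average, and of these Sox17, counted here as arterial, passed. Sox18 was at 40.01, 71.7 and 46.1 CPM with PBS and at 20.0, 31.9 and 38.0 CPM with Rb2, without overlap (-0.81 ± 0.30 SE, adjusted p = 0.126). Sox7 overlapped, at 25.0 to 28.8 and 14.2 to 28.5 CPM (-0.31 ± 0.23 SE, adjusted p = 0.390). Tal1, a factor shared with blood-forming cells, was at 3.54 to 4.57 and 2.38 to 3.90 CPM (-0.37 ± 0.23 SE, adjusted p = 0.300). Erg, the ETS factor that maintains endothelial identity, was nearly level, at 26.8 to 28.6 CPM with PBS and 21.4 to 32.4 CPM with Rb2 (-0.09 ± 0.16 SE, adjusted p = 0.723), and its sign turned without Rb2 1 (0.03).

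Among the 5 arterial genes Sox17 and Hey1 fell and 3 did not pass (class median -0.61). Hey1, a transcriptional repressor induced by Notch, was at 12.2, 10.6 and 9.36 CPM with PBS and at 3.53, 3.94 and 6.30 CPM with Rb2, a 2.34-fold lower mean (-1.22 ± 0.23 SE, adjusted p = 0.0149). Sox17 was at 14.0, 17.1 and 16.6 CPM with PBS and at 7.83, 9.43 and 9.67 CPM with Rb2 (-0.82 ± 0.14 SE, adjusted p = 0.0122). Both were low in all 3 Rb2 libraries. The call of Sox17 was lost without PBS 2 (adjusted p = 0.0552), and that of Hey1 without PBS 1, PBS 2, Rb2 1 or Rb2 3 (adjusted p up to 0.0714).

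Dll4, the Notch ligand of arterial and sprouting cells, had the highest level per length of the arterial genes and overlapped between the groups, at 27.0 to 40.2 CPM with PBS and 17.6 to 38.8 CPM with Rb2 (-0.36 ± 0.30 SE, adjusted p = 0.463). The arterial connexins differed from each other. Gja5 was at 9.50, 7.12 and 6.20 CPM with PBS and at 4.29, 4.91 and 5.70 CPM with Rb2, without overlap and short of the threshold (-0.61 ± 0.20 SE, adjusted p = 0.0756). Gja4 was at 3.60 to 5.61 and 4.69 to 5.24 CPM (0.06 ± 0.20 SE, adjusted p = 0.861), and its sign turned with library size alone as scaling (-0.03) and without PBS 1 (-0.11).

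The capillary and venous genes went both ways: 1 of 4 fell, and 3 did not pass (class median -0.46). Plvap, which forms the diaphragms of capillary fenestrae and of venous caveolae, was at 23.9, 24.4 and 19.8 CPM with PBS and at 9.47, 9.57 and 15.4 CPM with Rb2 (-0.98 ± 0.20 SE, adjusted p = 0.0215). Its locus overlaps Gtpbp3 by 1872 bases, with 9253 counts for Plvap and 4657 for Gtpbp3 in the 6 libraries together. Without a known strand setting the reads of the shared stretch cannot be assigned, so the value is uncertain. Its call was lost without PBS 1, PBS 2, Rb2 1 or Rb2 3 (adjusted p up to 0.0843).

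Kdr, the main signalling receptor of VEGF, had the highest level per length of these genes and overlapped, at 286, 365 and 339.6 CPM with PBS and 181, 256 and 324 CPM with Rb2 (-0.38 ± 0.21 SE, adjusted p = 0.255). Emcn, endomucin, a sialomucin of capillaries and veins, was at 47.0 to 59.9 and 20.0 to 48.2 CPM (-0.53 ± 0.31 SE, adjusted p = 0.296). Aplnr, the apelin receptor of capillaries and veins, stood on the other side. It was at 15.4, 14.3 and 22.4 CPM with PBS and at 26.0, 65.5 and 87.6 CPM with Rb2, 3.44-fold higher on average (1.78 ± 0.49 SE, adjusted p = 0.0843). All 3 Rb2 libraries were above all PBS libraries, but Rb2 1 lay near PBS 4. Aplnr was past the threshold without Rb2 1 (2.14 on the log2 scale) and in DESeq2's test (adjusted p = 0.00604).

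Of the 3 lymphatic genes 1 fell. Flt4, the receptor of VEGF-C, which lymphatic and some blood capillary cells carry, was at 15.6, 20.0 and 20.8 CPM with PBS and at 9.13, 9.63 and 14.3 CPM with Rb2 (-0.77 ± 0.20 SE, adjusted p = 0.0390). It was called in 1 of the 6 fits with a library left out, that without Rb2 4, and lost in the other 5 (adjusted p up to 0.130). It was also lost with library size alone (adjusted p = 0.0609) and in limma-voom (adjusted p = 0.0567). Lyve1, a hyaluronan receptor of lymphatic cells and of some macrophages, was at 1.28, 1.05 and 2.14 CPM with PBS and at 1.15, 0.485 and 1.49 CPM with Rb2 (-0.52 ± 0.43 SE, adjusted p = 0.446). Prox1, the factor that specifies lymphatic identity, was at 0.173 to 0.259 CPM with PBS and 0.145 to 0.335 CPM with Rb2 (0.22 ± 0.47 SE, adjusted p = 0.785). Prox1 had 126 counts in the 6 libraries together.

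Levels can be ordered between genes only per length. With PBS, and as CPM per kilobase of exon, Cdh5 was highest at 93.7, followed by S1pr1 at 67.8, Cldn5 at 61.9, Klf2 at 56.3, Eng at 45.6, Pecam1 at 37.5 and Kdr at 36.5. With Rb2, Cdh5 was still the highest at 54.0, while S1pr1 was at 29.4, Kdr at 28.1, Pecam1 at 26.6, Eng at 20.1, Klf2 at 18.6 and Cldn5 at 14.9 CPM per kilobase. By this measure Cldn5 stood above Pecam1 and Kdr in the PBS mean and below both in the Rb2 mean. The length is that of all annotated exons of a gene, 1416 bases for Cldn5, 6228 for Pecam1 and 9030 for Kdr. Their longest transcripts have 1416, 3441 and 5924 bases, so the order of Cldn5 and Pecam1 with PBS depends on the length used. The lowest with PBS were Tal1 at 0.921, Lyve1 at 0.511 and Prox1 at 0.0257 CPM per kilobase.

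Ratios to Cdh5 within a library show which markers changed unequally. Cdh5 was chosen as the reference after the values were seen, as a defining marker of the cell type, and the ratio shows unequal change, not which of the pair changed. Of the other 39 markers, 4 had a lower ratio in every Rb2 library than in every PBS library, against 1.19% of all genes. Another 13 had a higher ratio, against 65.4% of all genes, and 22 overlapped. With 3 libraries against 3 the smallest exact two-sided permutation p is 0.1, so no ratio could pass, and the adjusted value was 0.229 for each of these 17.

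The 4 markers that were lower relative to Cdh5 are those that were called whichever library was left out. Both selections used the same libraries and favour large falls, so their overlap is no separate support. The ratio of Cldn5 to Cdh5 was 0.212, 0.242 and 0.213 with PBS and 0.106, 0.0744 and 0.0965 with Rb2. Its mean ratio was 0.416 times that with PBS, with each Rb2 library below each PBS library. For Eng and S1pr1 the mean ratio was 0.764 times that with PBS, and for Acvrl1 0.846 times. On the other side, Tek went from a ratio of 0.234 ± 0.00874 (SD, n = 3) to 0.346 ± 0.00824, Ramp2 from 0.0872 ± 0.00455 to 0.140 ± 0.00776, and Erg from 0.0706 ± 0.00110 to 0.114 ± 0.00998. These 3 genes had tight ratios within each group, 1.48, 1.60 and 1.62 times higher with Rb2. Cdh5 itself was at 0.576 times its PBS level, so a gene with an unchanged level also has a higher ratio. None of the 3 passed the threshold on its own level (log2 fold changes of -0.23, -0.11 and -0.09). Calcrl (2.55 times) and Aplnr (5.86 times) had the highest ratios relative to PBS.

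Endothelial genes outside the 40 were set beside them, in a list of 47 of which 46 were tested. Of these 14 fell, 2 rose and 30 did not pass, with a median log2 fold change of -0.35. Over all genes tested 5.11% were called lower and 5.33% higher, so the 2 that rose are near the share of all genes. The summed level ranged from 6130.4 to 6398 CPM with PBS and from 5192 to 5688 CPM with Rb2. Among the 4 with the smallest p, Ltbp4, a binding protein of latent TGF-beta, fell from a mean of 170.3 to 78.4 CPM (-1.12 ± 0.16 SE, adjusted p = 0.00628). Sema3g, an arterial semaphorin, fell from 78.1 to 39.7 CPM (-0.98 ± 0.15 SE, adjusted p = 0.00950). The other pair rose: Palmd, palmdelphin, from 62.2 to 116 CPM (0.90 ± 0.13 SE, adjusted p = 0.00613), and Sele, E-selectin, the adhesion molecule of activated endothelium, from 0.466 to 2.12 CPM (2.19 ± 0.38 SE, adjusted p = 0.0122). Cd36, a fatty acid transporter that is also an adipocyte gene, took the largest part of that sum and did not pass (0.16, adjusted p = 0.503).

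Ligands of the receptors above, with Notch partners, made a list of 24, of which 22 were tested. Of these 6 fell, 2 rose and 14 did not pass (median -0.23), against 5.11% lower and 5.33% higher over all genes. Vegfa, the main ligand of Kdr and Flt1, was at 95.1, 91.3 and 110.2 CPM with PBS and at 228, 195 and 179 CPM with Rb2 (1.02 ± 0.15 SE, adjusted p = 0.00679). The ligand therefore rose in the tissue while Flt1 fell and Kdr did not pass. Pdgfb, by which endothelial cells recruit pericytes, was at 83.3, 98.5 and 88.3 CPM with PBS and at 26.5, 23.7 and 38.8 CPM with Rb2 (-1.60 ± 0.19 SE, adjusted p = 0.00362). Cxcl12, a chemokine of stromal and endothelial cells, fell from a mean of 212 to 107.5 CPM (-0.98 ± 0.18 SE, adjusted p = 0.0126). Slit3, a secreted guidance cue, fell from 14.0 to 5.73 CPM (-1.29 ± 0.22 SE, adjusted p = 0.0113). The other called genes, named after their values were seen, were Angpt1, the ligand of Tek, which rose, and Jag2, Dll1 and Sphk1, which fell. Apln, the ligand of Aplnr, was at 2.43 to 3.02 CPM with PBS and 3.64 to 6.67 CPM with Rb2 (0.77 ± 0.25 SE, adjusted p = 0.0793), and Adm, adrenomedullin, was at 0.10 (adjusted p = 0.839). Bmp10 and Gdf2, ligands of Acvrl1 and Eng, had 0 counts in all 6 libraries, where a count of 0 allows up to 3 counts, or 0.0324 to 0.0359 CPM (counting error only).

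Some markers of several other cell types of the depot were lower too. The share of all genes called lower, to be set beside the counts below, was 5.11%. Of 13 mural cell markers 3 fell, Kcnj8, a channel subunit of pericytes (-1.03 ± 0.19 SE, adjusted p = 0.0145), Mcam (-0.99) and Higd1b (-0.96), and the sum was 1029.6 to 1192 CPM with PBS and 833 to 914 CPM with Rb2. Rgs5 (-0.13, adjusted p = 0.562) and Pdgfrb (-0.06, adjusted p = 0.816), abundant in pericytes, did not pass. Of 8 macrophage markers 4 fell, the complement genes C1qc (-0.86 ± 0.13 SE, adjusted p = 0.00903), C1qb (-0.79) and C1qa (-0.69) and the growth factor receptor Csf1r (-0.48), with sums of 76.5 to 98.6 and 51.0 to 63.9 CPM. Of 5 erythroid markers 4 fell, Hba-a1 (-1.07 ± 0.20 SE, adjusted p = 0.0142), Hba-a2 (-1.19), Hbb-bt (-1.15) and Hbb-bs (-1.01), globin genes whose near-identical copies make the split of reads uncertain. Their list summed to 1036 to 1451 CPM with PBS and 479 to 793 CPM with Rb2, so red cell transcripts were also lower in every Rb2 library.

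The remaining lists had no member past edgeR's threshold. The 8 fibroblast markers summed to 737 to 963 CPM with PBS and 517 to 728 CPM with Rb2, with Col3a1 at -0.60 (adjusted p = 0.0719) and Col1a2 at -0.70 (adjusted p = 0.0822). The 5 platelet markers, of which 4 were tested, summed to 6.45 to 7.86 and 3.87 to 5.20 CPM, with Gp1bb at -1.96 (adjusted p = 0.0563) and Ppbp at -0.97 (adjusted p = 0.0957). The sum of the 8 lymphocyte markers overlapped, at 2.29 to 3.22 and 1.90 to 2.45 CPM (Cd79a, itself lower in every Rb2 library, -0.87, adjusted p = 0.210). So did the sum of the 5 mast cell markers, at 5.62 to 9.09 and 7.71 to 13.3 CPM (Kit, itself higher in every Rb2 library, 0.72, adjusted p = 0.113; Cma1 -0.60, adjusted p = 0.371), and that of the 4 Schwann cell markers, at 52.5 to 167 and 67.7 to 108 CPM (S100b 0.54, adjusted p = 0.186). The 8 adipocyte markers stood at 18102 to 19846 CPM with PBS and 17309 to 21151 CPM with Rb2 (Pnpla2 0.33, adjusted p = 0.173; Adipoq 0.24, adjusted p = 0.363). The part of these cell types in the lower endothelial levels was not tested.

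**Figure D3:**
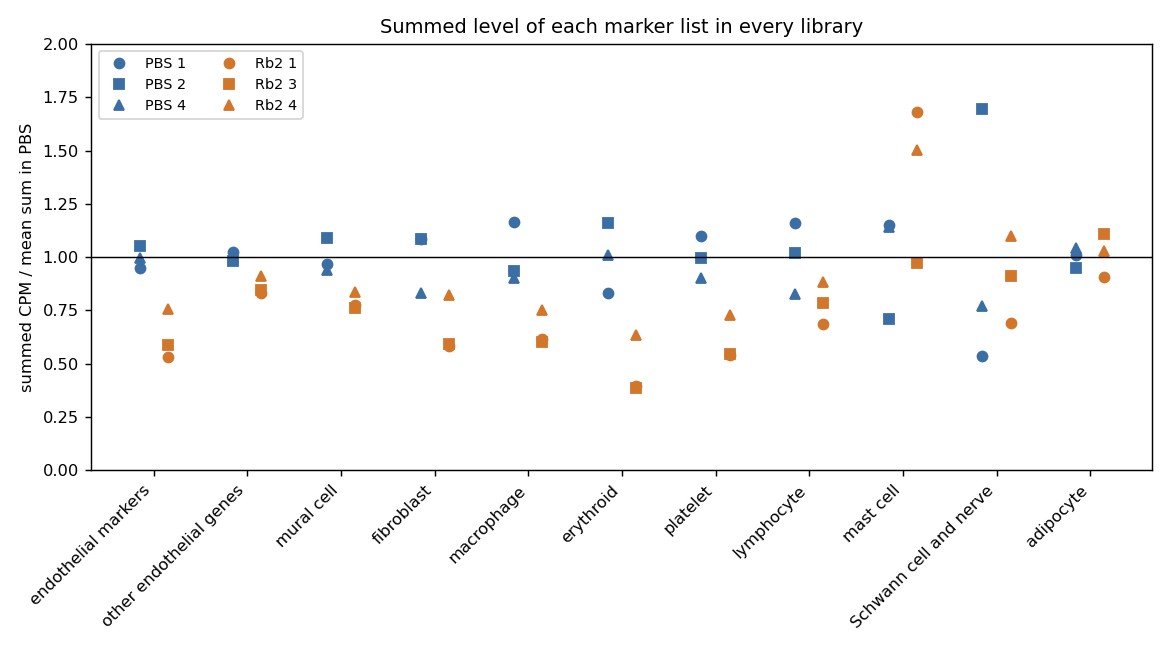
Summed CPM of each marker list in every library, divided by its mean with PBS (linear axis from 0; blue for PBS, orange for Rb2). The 40 endothelial markers, mural, fibroblast, macrophage, erythroid and platelet lists lie lower in all 3 Rb2 libraries than in all PBS libraries, as do the other endothelial genes, while the adipocyte list overlaps.

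Skeletal muscle transcripts differed between libraries more than any other list. The 12 muscle markers summed to 1916, 5980.0 and 6.80 CPM with PBS (libraries 1, 2 and 4) and to 0.850, 354 and 214 CPM with Rb2 (libraries 1, 3 and 4), with 0 of the 12 past the threshold (Myh2 -4.53, adjusted p = 0.325; Mylpf -3.79, adjusted p = 0.357). PBS 4 held few of them, and in 31 of the 40 endothelial markers it was above all 3 Rb2 libraries, which held for 32.5% of all genes. With the mean muscle level as a covariate 15 of the 18 calls were kept. Ece1, Flt1 and Flt4 were lost, Calcrl passed as higher and Icam2 and Klf2 as lower, against 2.92% of all genes called higher and 2.99% lower (5.91% in either direction). Without both PBS 1 and PBS 2, edgeR called 0 markers and 0 genes in all, with 20 markers, and 2063 of 17776 genes, at an unadjusted p under 0.05. That fit has 1 PBS library, which is assumed to vary like the Rb2 libraries, and its median over the markers was -0.66.

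GC content moved with the difference too. Genes with a higher GC content in their longest transcript were lower after Rb2 across the whole table: in 10 bins of GC content with equal numbers of genes, the median log2 fold change ran from 0.26 in the lowest bin to -0.33 in the highest. The markers had a median GC content of 53.2% against 49.8% for all genes, and 30 of the 40 were above that value. Within every bin that held markers their median was below that of all genes, for example 0.01 against 0.26 in the lowest (Emcn and Calcrl) and -0.98 against -0.33 in the highest (7 markers, Cldn5, Klf2 and Nos3 among them). Across the 40 markers Spearman's rho between GC content and fold change was -0.42, and across all genes -0.33, from the same 6 libraries. An offset for the GC content and length of transcripts kept 14 of the 18 calls, against 3.24% of all genes lower and 5.12% higher (8.36% in either direction), and the median was -0.52. Cldn5 was then at -1.61 (adjusted p = 0.00470) and S1pr1 at -1.21 (adjusted p = 0.00317), while Ece1 (adjusted p = 0.0736), Flt1 (adjusted p = 0.0520), Flt4 (adjusted p = 0.103) and Plvap (adjusted p = 0.0580) were lost. The part of GC content in the other calls was not tested beyond this offset.

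**Figure D4:**
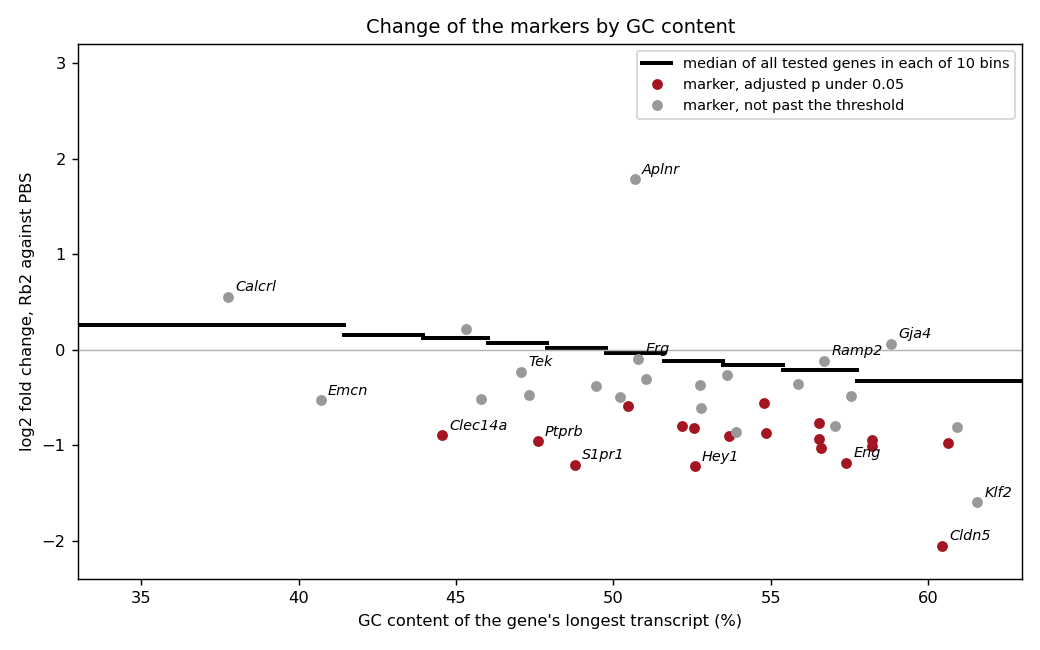
Log2 fold change of each marker (points; red for an adjusted p under 0.05) against the GC content of its longest transcript in percent, with black bars for the median of all tested genes in each of 10 bins of GC content, the outer ones cut at the axis. The bars fall from 0.26 to -0.33, and most markers lie below the bar of their bin; Aplnr, Calcrl, Gja4, Ramp2 and Prox1 lie above it.

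The calls depended on single libraries. Without PBS 1, 6 markers were called lower, without PBS 2 there were 7, without Rb2 3 there were 9, without Rb2 1 there were 12, without PBS 4 there were 16 and without Rb2 4 there were 24. Without Rb2 1, Aplnr and Calcrl were also called as higher. Such a fit has fewer libraries and called fewer genes in all in 5 of the 6 cases. The range of all genes called in these fits is given in the section on processing. At an unadjusted p under 0.05 (edgeR) the markers numbered from 25 (without Rb2 1 or Rb2 3) to 33 (without Rb2 4). All genes at that level numbered from 3518 of 17156 (without PBS 2) to 5384 of 17087 (without Rb2 4). Cldn5, S1pr1, Eng and Acvrl1 were the 4 markers called in each of the 6 fits. The direction of change did not turn in any of the 18 called markers under the 18 refits drawn in the plot of all settings.

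**Figure D5:**
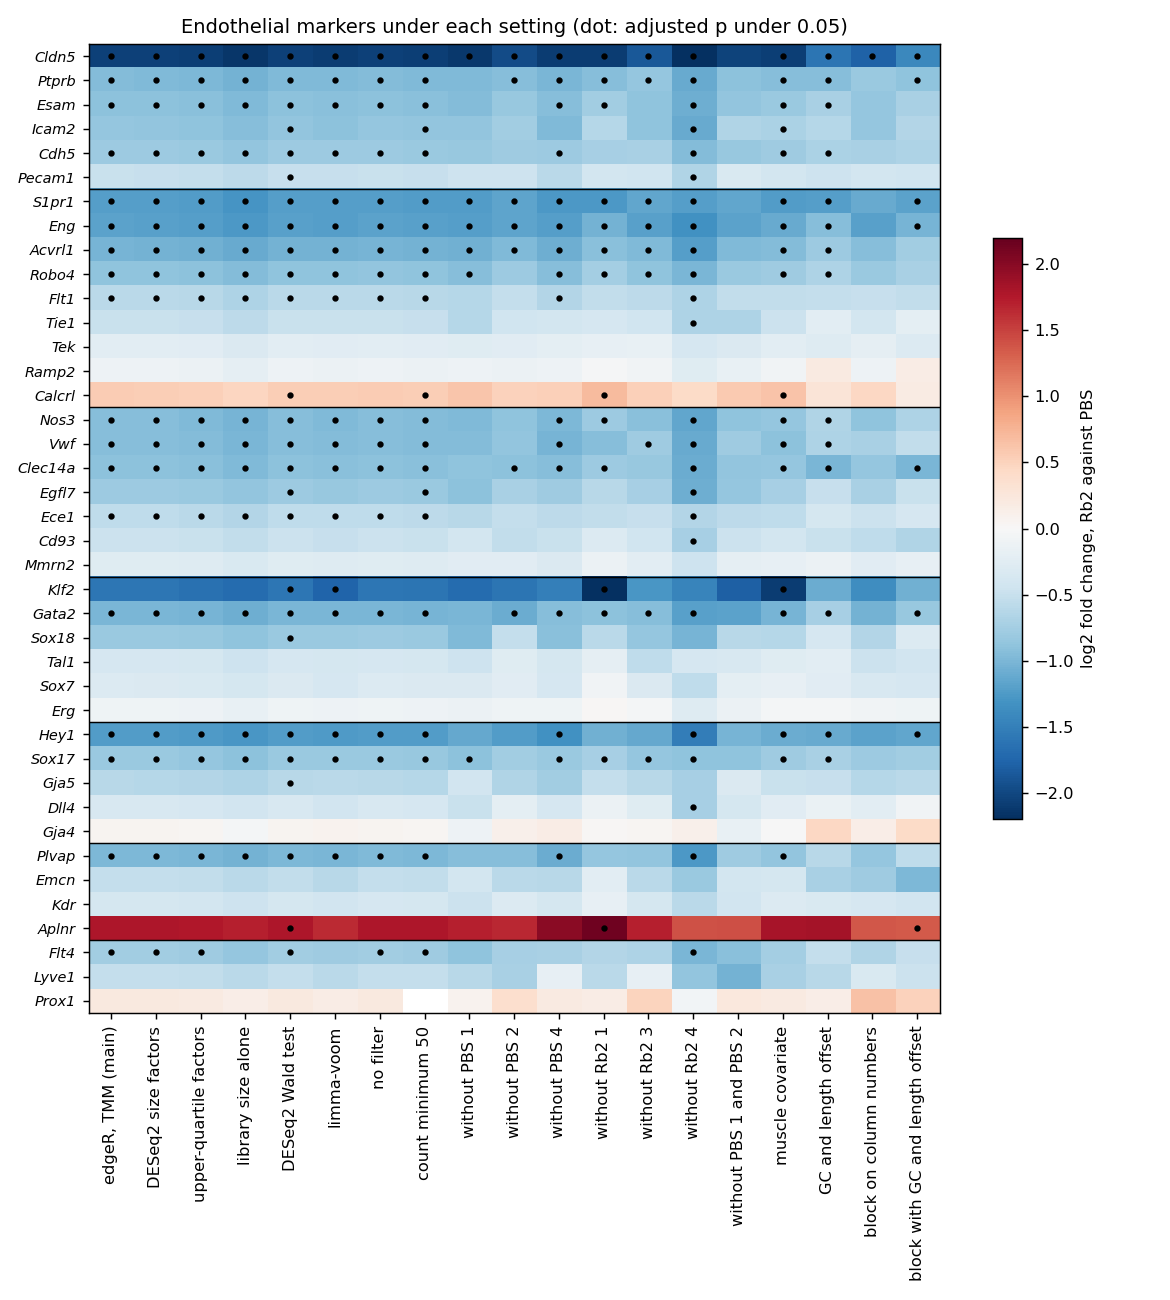
Log2 fold change of the 40 markers (rows, by class) under each setting (columns), in blue for lower and red for higher after Rb2, with a dot where the adjusted p was under 0.05. The 4 markers Cldn5, S1pr1, Eng and Acvrl1 carry dots in all 6 columns that leave out 1 library, and the blank field is Prox1, not tested at a count minimum of 50.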

How the data were processed

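The authors deposited 1 table of raw read counts for 45777 genes in 6 libraries, whole numbers that were not normalized. Trimmomatic, HISAT2, Bowtie2, StringTie and the mm10 genome are named per the submitters' processing notes. Not given in the sources used here: their roles and versions, the counting program and its strand setting. The numbers in the table's columns match no replicate number of a sample title with certainty. Each library is 1 mouse, so p-values measure the spread between 3 mice per group.

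Counts were scaled with TMM factors and tested with edgeR 4.0.16 in R 4.3.3 (quasi-likelihood F test, robust, group as the only term). Genes passed edgeR's default filter (a count of 10, a total of 15), which left 16707, all 40 markers among them. Benjamini-Hochberg adjustment ran over all 16707, with a threshold of 0.05. DESeq2 1.42.0 and limma 3.58.1 (voom) were alternatives, as were other scalings, filters and thresholds, leaving out libraries, a muscle covariate, an offset for GC content and length (natural splines with 5 degrees of freedom, values for 94.4% of tested genes) and a replicate block. The script was tested on simulated counts. Total counts of 83642183 to 92666780 put the floor of 3 counts at 0.0324 to 0.0359 CPM. Positions and promoters come from RefSeq, GRCm38.p6. Exon lengths, transcript lengths and GC content come from the GENCODE M21 annotation of the GRCm38 genome.

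The members, the lists of other genes and the alternatives were chosen with earlier results of these data known. All 40 markers were named. From each other list up to 4 past the threshold with the smallest p were named, or, where none passed, the 2 with the smallest p, except that 2 genes are not reported here. All 147 entries of the 12 other lists matched by symbol. The muscle covariate and the pair of libraries with most muscle transcripts follow that earlier analysis.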

Additional observations from a re-analysis of the deposited data

How the results depend on the processing

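The number of markers called lower was 17 to 20 of 40 with 6 of the settings: upper-quartile factors, DESeq2 size factors, no filter, a count minimum of 50, limma-voom and library size alone. It was 24 in DESeq2's Wald test, 14 with the GC and length offset, 17 with the muscle covariate and 23 at an adjusted p under 0.1, and 6 with a fold of at least 2 required. It ranged from 6 to 24 with 1 library left out, and was 0 without both PBS 1 and PBS 2. Markers called higher numbered 2 in DESeq2's Wald test, 1 with a count minimum of 50, 1 with the muscle covariate, 2 at an adjusted p under 0.1, and 0 to 2 with 1 library left out. The median of the markers stayed between -0.88 and -0.52 in every setting run.

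Over all genes, against 853 lower and 890 higher, the calls were 779 and 492 with library size alone (38.7% higher, against 51.1%), 1623 and 1686 in DESeq2's Wald test, 500 and 488 with the muscle covariate, and 511 and 807 with the GC and length offset (61.2% higher). They were 1635 and 1757 at an adjusted p under 0.1, 322 and 242 with a fold of at least 2, and 0 and 0 without both PBS 1 and PBS 2. With 1 library left out they ranged from 181 to 1069 lower and from 121 to 1200.0 higher. The cause of these shifts was not tested, apart from the fewer libraries of the last fits and the stricter or looser thresholds.

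For the column numbers that both groups carry, 1 and 4, deviations from the group means of same-numbered libraries correlated at -0.20 and -0.22. So few pairs cannot show whether the numbers mark a pairing of the mice. A replicate block on the column numbers could use only the libraries numbered 1 and 4, so PBS 2 and Rb2 3 were left out. It left 1 marker (Cldn5) called lower, with 20 genes lower and 32 higher in all. The parts of the block and of the fewer libraries in this loss were not told apart. The replicate block with the GC and length offset, on the same libraries, left 7 lower and 1 higher (Aplnr), with 224 and 278 genes in all.

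Directions reversed in 8 of the refits of single markers. Gja4 (log2 fold change) was at -0.034 with library size alone, -0.16 without PBS 1 and PBS 2 and -0.0054 with the muscle covariate, and ranged from -0.11 to 0.17 with 1 library left out (-0.11 without PBS 1). With 1 library left out Erg ranged from -0.29 to 0.031 (without Rb2 1) and Prox1 from -0.054 (without Rb2 4) to 0.49. Ramp2 was at 0.20 with the GC and length offset and 0.16 with the block added. None of these markers had passed the threshold, and the cause was not tested. Of the other results for single markers 651 kept direction and side of the threshold, 108 lost a call and 32 gained one. These numbers include an adjusted p under 0.1 and a fold of at least 2, which are other thresholds on the main fit. Prox1 had the fewest counts of the 40, 126 in 6 libraries.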
